A study of Mus musculus with 4 samples.

Results

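The 4 adult globin genes and 5 other genes of red cell development were examined for open chromatin in mouse leukemia cells of the myeloid blood lineage. The set holds 9 protein-coding genes: the adult beta-globin genes Hbb-bt and Hbb-bs, the adult alpha-globin genes Hba-a1 and Hba-a2, the transcription factor gene Klf1, the erythropoietin receptor gene Epor, the heme enzyme gene Alas2, the anion exchanger gene Slc4a1 and the Rh-associated glycoprotein gene Rhag. They were chosen by name, as 9 of 21755 protein-coding genes on the autosomes and X, and each was taken with its gene body and 50 kb on either side. Because the globin genes lie close together, these windows merged into 7 loci of 808 kb in all, which take in the upstream control regions of both globin clusters.

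DNase-seq cuts accessible DNA in nuclei with the enzyme DNase I and finds open chromatin as places dense in cuts. The cells were labelled acute myeloid leukemia, differentiated in vitro, of mouse strain C57BL/6J, all from 1 donor entry with age unknown and sex not collected; no treatment, engineered allele or control was named. There were 4 libraries, 2 technical replicates for each of 2 biological replicates, and the deposited lists hold 1 peak list per biological replicate, made from its pooled libraries. Every value below is therefore 1 value per list with no replicate error, and only the labels tell the replicates apart as separate samples. In a pooled population, a site open in few cells and a site weakly open in all of them cannot be told apart.

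Replicate 1 had 236754 distinct peaks and replicate 2 had 67559, all 150 bp windows with a score of unstated scale. A score was therefore read only as its percentile within its own list. Peaks of both lists that had at least 1 bp in common were called shared, which held for 26.1% of the replicate 1 list and 91.9% of the replicate 2 list. The number of reads behind each list was unknown. Of 9 myeloid regulator and receptor genes, 9 had a shared promoter peak, against 58.2% of all coding genes, led by Spi1, Cebpa, Csf2ra and Tyrobp. Of 9 myeloid granule genes 6 (66.7%) had one, and the other 3 had a promoter peak in replicate 1 only. In a list of erythropoietin receptor signalling and iron uptake genes 13 of 13 had one. These counts alone therefore do not identify the cell type.

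Globin chains and heme are made in large amounts late in red cell development. The beta-globin genes are switched on through a locus control region, a cluster of DNase hypersensitive sites upstream of the embryonic gene Hbb-y, and the alpha-globin genes through enhancers that lie upstream, mostly inside introns of the neighbouring housekeeping gene Nprl3. Both are bound in red cell precursors by GATA1, TAL1, KLF1, which reads CACCC boxes, and NFE2, which reads an extended AP-1 site. In blood stem and progenitor cells some of these distal sites are known to open before the globin promoters do.

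The sequences that carry the findings are printed first, as the plus strand of mm10 (GRCm38.p6), with motif matches in capitals. The motifs searched on either strand were the GATA motif (AGATAA or AGATAG or TGATAA or TGATAG), the KLF-type CACCC box (CCACACCC or CCCCACCC or CCACGCCC or CCCCGCCC), NFE2/AP-1 (TGAGTCA), TAL1-type E-box (CAGATG), PU.1-type ETS (GAGGAAGT or AAGGAAGT), C/EBP (TTGCNNAA), RUNX (TGTGGTT) and CTCF, the last by its consensus. From the beta-globin cluster, the windows shown are the 3 shared peaks and the replicate 1 peak with the highest score among those upstream of Hbb-y that had no partner. The first lies in the upstream control region and holds 2 NFE2/AP-1 matches side by side and a CACCC box, the second is its neighbour with 1 NFE2/AP-1 match, the third lies just beyond the 3′ end of Hbb-bt with 2 GATA and 1 ETS match, and the last holds none of the 8 motifs. The printed windows are those of replicate 1, and the replicate 2 partners are slightly shifted. The partner of the first also held 1 TAL1-type E-box. The partner of the third held 1 GATA and 2 ETS matches, and that of the last 1 GATA match.
chr7:103861056-103861205, shared: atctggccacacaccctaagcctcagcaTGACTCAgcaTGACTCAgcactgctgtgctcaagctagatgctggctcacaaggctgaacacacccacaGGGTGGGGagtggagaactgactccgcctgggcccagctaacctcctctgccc
chr7:103861616-103861765, replicate 1 only: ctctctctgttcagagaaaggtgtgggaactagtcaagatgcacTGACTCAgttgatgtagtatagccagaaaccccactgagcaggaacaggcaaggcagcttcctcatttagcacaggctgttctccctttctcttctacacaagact
chr7:103812276-103812425, shared: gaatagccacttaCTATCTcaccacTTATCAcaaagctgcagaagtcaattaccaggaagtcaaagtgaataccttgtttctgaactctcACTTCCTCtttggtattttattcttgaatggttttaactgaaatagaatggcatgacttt
chr7:103806996-103807145, shared: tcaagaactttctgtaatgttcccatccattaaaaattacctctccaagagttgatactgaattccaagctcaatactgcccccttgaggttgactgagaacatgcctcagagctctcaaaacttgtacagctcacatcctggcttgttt

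From the alpha-globin cluster, the windows shown are the 4 shared peaks between genes, all downstream of Hba-a2, and the highest-scoring replicate 1 peak without a partner upstream of the embryonic gene Hba-x, in an Nprl3 intron. That intronic window holds 1 TAL1-type E-box. Other replicate 1 windows of that stretch are not shown. The one 18.2 kb upstream of Hba-a1 holds 1 GATA, 1 NFE2/AP-1 and 1 RUNX match. The one at 12.1 kb holds 1 E-box and the one at 35.6 kb no match. Of the windows shown, the 2 farthest downstream hold CTCF matches, 1 on the minus strand in the first and 2 on the plus strand in the second, where a RUNX match on the minus strand runs into an E-box. The replicate 2 partner of the second also holds 1 GATA match. CTCF is the factor that marks insulators and loop anchors.
chr11:32247216-32247365, replicate 1 only: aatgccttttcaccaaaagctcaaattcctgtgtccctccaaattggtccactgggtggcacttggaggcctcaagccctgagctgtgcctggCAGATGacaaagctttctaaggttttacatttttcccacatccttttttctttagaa
chr11:32321236-32321385, shared: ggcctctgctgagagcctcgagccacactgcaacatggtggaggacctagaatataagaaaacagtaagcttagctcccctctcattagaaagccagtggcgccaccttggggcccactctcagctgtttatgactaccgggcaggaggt
chr11:32324716-32324865, shared: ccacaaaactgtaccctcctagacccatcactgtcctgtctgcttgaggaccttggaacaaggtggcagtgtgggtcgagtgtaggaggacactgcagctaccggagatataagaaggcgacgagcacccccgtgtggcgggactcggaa
chr11:32341216-32341365, shared: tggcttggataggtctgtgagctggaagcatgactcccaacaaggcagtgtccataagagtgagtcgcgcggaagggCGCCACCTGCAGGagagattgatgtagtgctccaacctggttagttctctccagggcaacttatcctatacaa
chr11:32342896-32343045, shared: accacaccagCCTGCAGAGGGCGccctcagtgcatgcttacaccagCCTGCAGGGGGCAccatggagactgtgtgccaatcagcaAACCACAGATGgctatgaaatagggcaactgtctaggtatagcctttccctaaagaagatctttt

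At Klf1 and Epor, the windows shown are the shared peaks inside Klf1, which were chosen for printing after their values were seen, and those at the Epor promoters, cut to the stretch outside annotated untranslated exons. The Klf1 exon window holds none of the 8 motifs, the Klf1 intron window 1 NFE2/AP-1 match, the internal Epor window 2 CACCC boxes, and the window at the Epor start 1 CACCC box and 1 GATA match. These Epor boxes all match as CCCCGCCC, a searched form without the letters CACCC. The windows are again those of replicate 1. The replicate 2 partner of the Klf1 intron window held none of the motifs. A further replicate 2 window in the same Klf1 exon, which overlaps no replicate 1 peak, held 3 CACCC box matches. The partner at the Epor start held the CACCC box but no GATA match.
Klf1 exon, chr8:84903196-84903345: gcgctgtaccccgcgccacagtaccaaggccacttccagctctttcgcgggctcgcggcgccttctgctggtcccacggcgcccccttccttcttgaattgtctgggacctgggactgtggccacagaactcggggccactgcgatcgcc
Klf1 intron, chr8:84904576-84904725: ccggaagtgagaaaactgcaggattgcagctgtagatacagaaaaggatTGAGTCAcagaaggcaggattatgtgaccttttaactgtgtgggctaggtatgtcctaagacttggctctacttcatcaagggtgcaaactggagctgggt
Epor internal start, chr9:21962565-21962705: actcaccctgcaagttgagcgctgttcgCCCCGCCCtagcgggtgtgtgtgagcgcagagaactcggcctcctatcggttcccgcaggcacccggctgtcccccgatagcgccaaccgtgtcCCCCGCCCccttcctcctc
Epor start, chr9:21963577-21963645: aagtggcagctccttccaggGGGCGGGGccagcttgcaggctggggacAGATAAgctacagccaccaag

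Of the 9 genes, 2 had a peak within 1 kb of an annotated transcript start in replicate 1, Klf1 and Epor, and the rate over all coding genes in that list was 71.1%. In replicate 2 only Epor had one, 1 of 9, against 58.8% of all coding genes. Epor was also the only one of the 9 with a promoter peak shared by both lists, against 58.2% of all coding genes. The 4 adult globin genes, Alas2, Slc4a1 and Rhag had no promoter peak in either list. Peaks inside the gene body were listed in replicate 1 for 3 of 9 genes, Klf1, Epor and Rhag, against 77.6% of all coding genes. In the surroundings, 8 of 9 genes, all but Rhag, had a shared peak in the gene body or within 50 kb, against 85.0% of all coding genes. No test was made of these shares, because each replicate is 1 list and the genes were chosen with earlier results known.

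**Figure D1:**
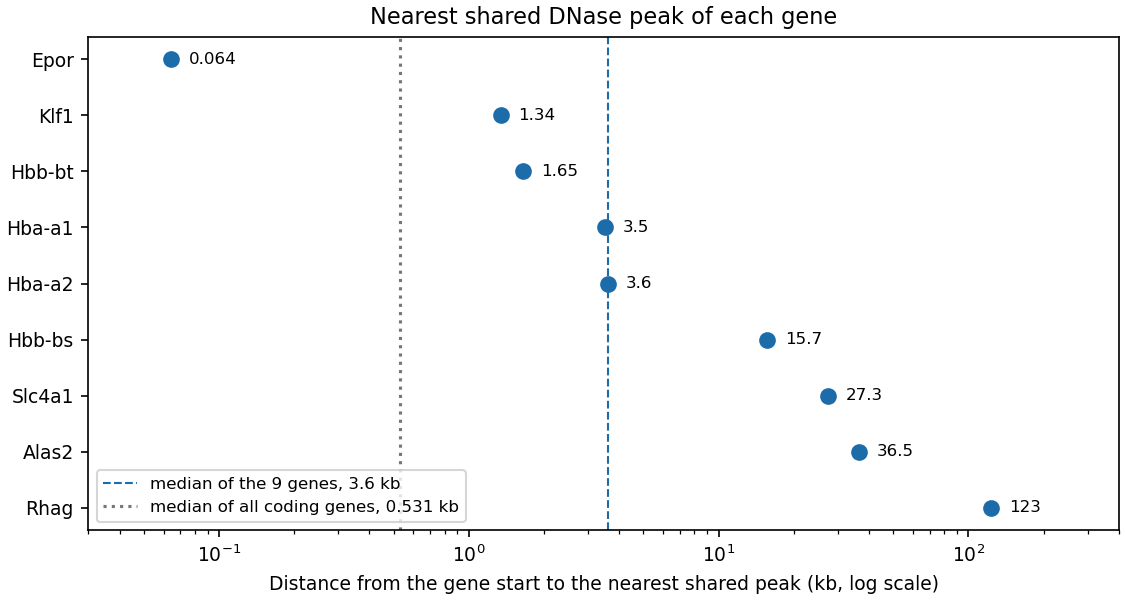
Distance in kb (log scale) from the annotated start of each of the 9 genes to the centre of the nearest peak shared by both lists, with the median of the 9 genes (dashed) and of all 21755 coding genes (dotted). Epor lies left of the median of all coding genes and the other genes lie right of it, with Rhag farthest away at 123 kb.

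The nearest shared peak lay a median of 3.60 kb from the start of the 9 genes, against 0.531 kb over all coding genes. The plot of these distances runs over several orders of size, with Epor at 0.0640 kb, Klf1 at 1.34 kb and Hbb-bt at 1.65 kb. Both alpha-globin genes had one about as far away, at 3.50 kb for Hba-a1 and 3.60 kb for Hba-a2, and these were the peaks of their neighbours Hbq1b and Hbq1a. Hbb-bs followed at 15.7 kb, Slc4a1 at 27.3 kb, Alas2 at 36.5 kb and Rhag at 123 kb.

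The 7 loci held 139 peaks of replicate 1, or 172 per Mb against 89.6 per Mb for the whole list, and 62 peaks of replicate 2, or 76.8 per Mb against 25.6 per Mb. The loci are centred on genes and the whole-list rates are not, so these rates alone do not show an excess at red cell genes. Set beside the same windows around all coding genes, the 9 genes had a lower median count of replicate 1 peaks. Their median counts of replicate 2 peaks and of shared peaks were higher. Of the replicate 1 peaks 61 were shared (43.9%, against 26.1% of the whole list), and of the replicate 2 peaks 59 (95.2%, against 91.9%). Hotspots numbered 115 in replicate 1 and 58 in replicate 2. The shared peaks belonged mostly to neighbours. Of the 61 shared peaks, 41 (67.2%) lay at promoters of other coding genes, 4 in bodies of other genes, 12 between genes, 2 at promoters of Epor and 2 inside Klf1. The loci also differed among themselves, from 296 replicate 1 peaks per Mb around Epor to 40.6 per Mb around Alas2.

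The beta-globin genes Hbb-bt (chr7:103812524-103813996) and Hbb-bs (chr7:103826534-103828096), both on the minus strand, lay in a cluster with a peak density near that of the whole lists. Among such windows of all coding genes it was low, with both genes at percentile 21.2 by replicate 1 peaks. By replicate 2 peaks they stood at 26.1 and by shared peaks at 27.4. The 116 kb of the cluster (chr7:103762524-103878096) held 9 peaks of replicate 1 and 3 of replicate 2, at 77.9 and 26.0 per Mb, and all 3 of replicate 2 overlapped one of replicate 1. None lay at the start or in the body of Hbb-bt, Hbb-bs, the embryonic gene Hbb-y, or the genes Hbb-bh1 and Hbb-bh2.

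The strongest of them by score lay in the upstream control region, 33.0 kb upstream of the Hbb-bs start and beyond Hbb-y. It scored 107 in replicate 1, at percentile 75.7 of that list, and its partner scored 24 in replicate 2, at percentile 25.2 of its own list. Both windows lay in hotspots, the wider deposited regions of enrichment, with a −log10 q at the ceiling of 100. That value is common, at 53.0% of all replicate 1 hotspots and 41.5% of all replicate 2 hotspots. The replicate 1 window of this site is the one printed above with the pair of NFE2/AP-1 matches. A tandem of such sites is a textbook feature of one of the hypersensitive sites of this control region, but the peak was not matched to a named site here. Its neighbours, 33.6 and 33.8 kb upstream, were found in replicate 1 only, with scores of 60 and 30 at percentiles 34.3 and 1.33. A further replicate 1 peak lay 45.2 kb upstream, with a score of 41 at percentile 8.05.

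The other shared peaks of the cluster lay on the far side of the genes. One, 1.65 kb downstream of the Hbb-bt start and just past the end of the gene, scored 87 in replicate 1 (percentile 61.6) and 12 in replicate 2 (percentile 1.96). The other, 6.93 kb downstream of that start, scored 76 in replicate 1 (percentile 52.2) and 21 in replicate 2 (percentile 17.5). All 3 shared peaks were thus above the middle of the 236754 replicate 1 peaks and below the middle of the 67559 replicate 2 peaks. Because the lists differ so much in length, a percentile stands for a different rank in each. No difference in strength between the replicates is read from this. The remaining replicate 1 peaks were weak: 35 at 1.27 kb upstream of Hbb-bt (percentile 3.27), 54 at 20.8 kb downstream (percentile 26.0) and 30 in an exon of the olfactory receptor gene Olfr69 (percentile 1.33).

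**Figure D2:**
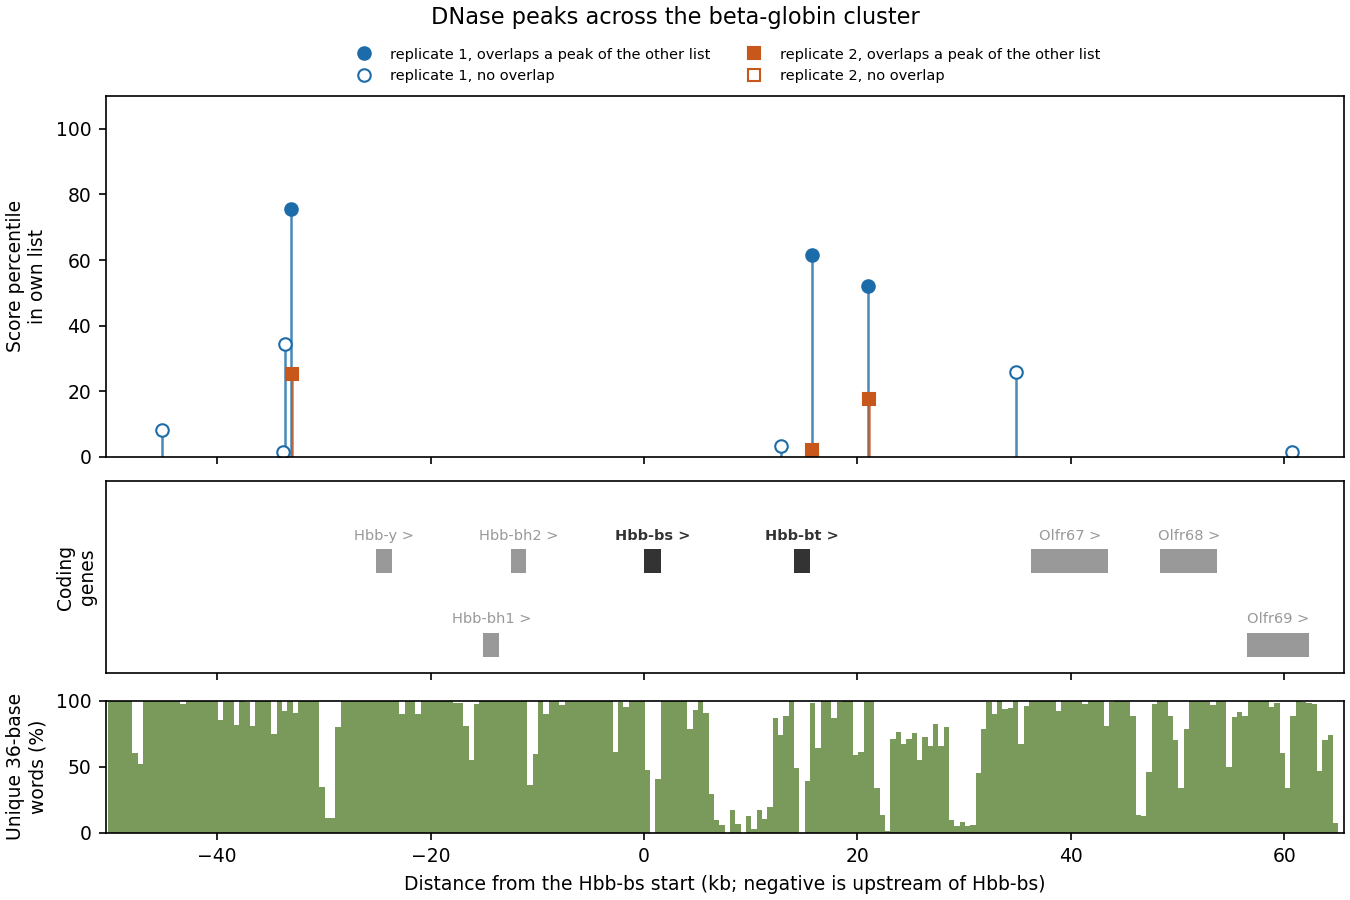
Peaks across the beta-globin cluster by distance from the Hbb-bs start in kb; height is the score percentile within the peak's own list, circles are replicate 1, squares replicate 2, and filled symbols overlap a peak of the other list. Below are the coding genes (the arrowhead gives the strand relative to Hbb-bs) and the percent of 36-base words that occur once in mm10, in 500-base steps; the shared peaks stand at 33.0 kb upstream of Hbb-bs and beyond Hbb-bt, and no symbol stands over a globin gene.

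The alpha-globin cluster had more peaks, again none at the adult genes Hba-a1 (chr11:32283511-32284465) and Hba-a2 (chr11:32296489-32297298), both on the plus strand. Its 114 kb (chr11:32233511-32347298) held 22 peaks of replicate 1 and 10 of replicate 2, at 193 and 87.9 per Mb. All 10 peaks of replicate 2 overlapped one of replicate 1, where 12 peaks were shared. No peak of either list lay within 1 kb of a start of Hba-a1, Hba-a2 or the embryonic gene Hba-x. Among the windows of all coding genes, Hba-a1 stood at percentile 40.2 and Hba-a2 at 42.4 by replicate 1 peaks. Both stood at 54.1 by replicate 2 peaks and at 70.7 by shared peaks.

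Upstream of the globin genes, the strongest site was the promoter of Nprl3, which encodes a regulator of nutrient signalling through mTORC1. It lay 15.9 kb upstream of the Hba-a1 start and scored 147 in replicate 1 (percentile 97.4) and 83 in replicate 2 (percentile 93.0). Internal Nprl3 starts farther upstream had shared peaks of 123 and 45 (percentiles 85.0 and 66.9) and of 79 and 38 (percentiles 54.9 and 56.1), with replicate 1 first. The peaks in the body of Nprl3 and between Nprl3 and Hba-x, the stretch that holds the alpha-globin enhancers, were found in replicate 1 only. They scored 97 at 36.2 kb upstream of Hba-a1 (percentile 69.0), 63 at 35.6 kb (38.1), 55 at 18.2 kb (27.4) and 49 at 12.1 kb (18.6); the second of these lies over an Nprl3 exon. Away from Nprl3 promoters, replicate 2 thus had no peak in that stretch. Which of these windows correspond to named enhancers was not examined here.

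Within the cluster, the only globin genes with a promoter peak were the theta-globin genes Hbq1b and Hbq1a, alpha-type genes of uncertain function that lie downstream of Hba-a1 and Hba-a2. Hbq1b had overlapping windows of 64 and 60 in replicate 1 (percentiles 39.3 and 34.3) that met 1 peak of 17 in replicate 2 (percentile 8.67). Hbq1a had windows of 60 and 58 in replicate 1 (percentiles 34.3 and 31.6) that met a peak of 20 in replicate 2 (percentile 15.1). A separate Hbq1a window scored 97 in replicate 1 (percentile 69.0) and 28 in replicate 2 (percentile 35.1). These are low ranks for promoters: over all coding genes with a promoter peak, the median of the best percentile was 94.9 in replicate 1 and 89.6 in replicate 2. Some of these theta-globin windows held a CTCF match. At Hbq1a these were the window of 60 in replicate 1 and its partner of 20 in replicate 2. At Hbq1b only the replicate 2 window held a match.

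Downstream of Hba-a2 lay the strongest peaks between genes. Those shared by both lists scored 126 and 45 at 24.8 kb downstream of the Hba-a2 start, 123 and 61 at 28.3 kb, 82 and 28 at 44.8 kb, and 110 and 37 at 46.5 kb, with replicate 1 first. In their own lists they stood at percentiles 86.5, 85.0, 57.6 and 77.5 of replicate 1 and at 66.9, 82.2, 35.1 and 54.4 of replicate 2. At the sites 44.8 and 46.5 kb downstream the windows of both lists held CTCF matches, and at 24.8 kb only the replicate 2 window, which lies slightly farther downstream than the one printed, held a match. The highest score between genes, 128 at 34.7 kb downstream (percentile 87.5), had no partner in replicate 2, and neither had a window of 109 at 24.6 kb (percentile 76.9).

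**Figure D3:**
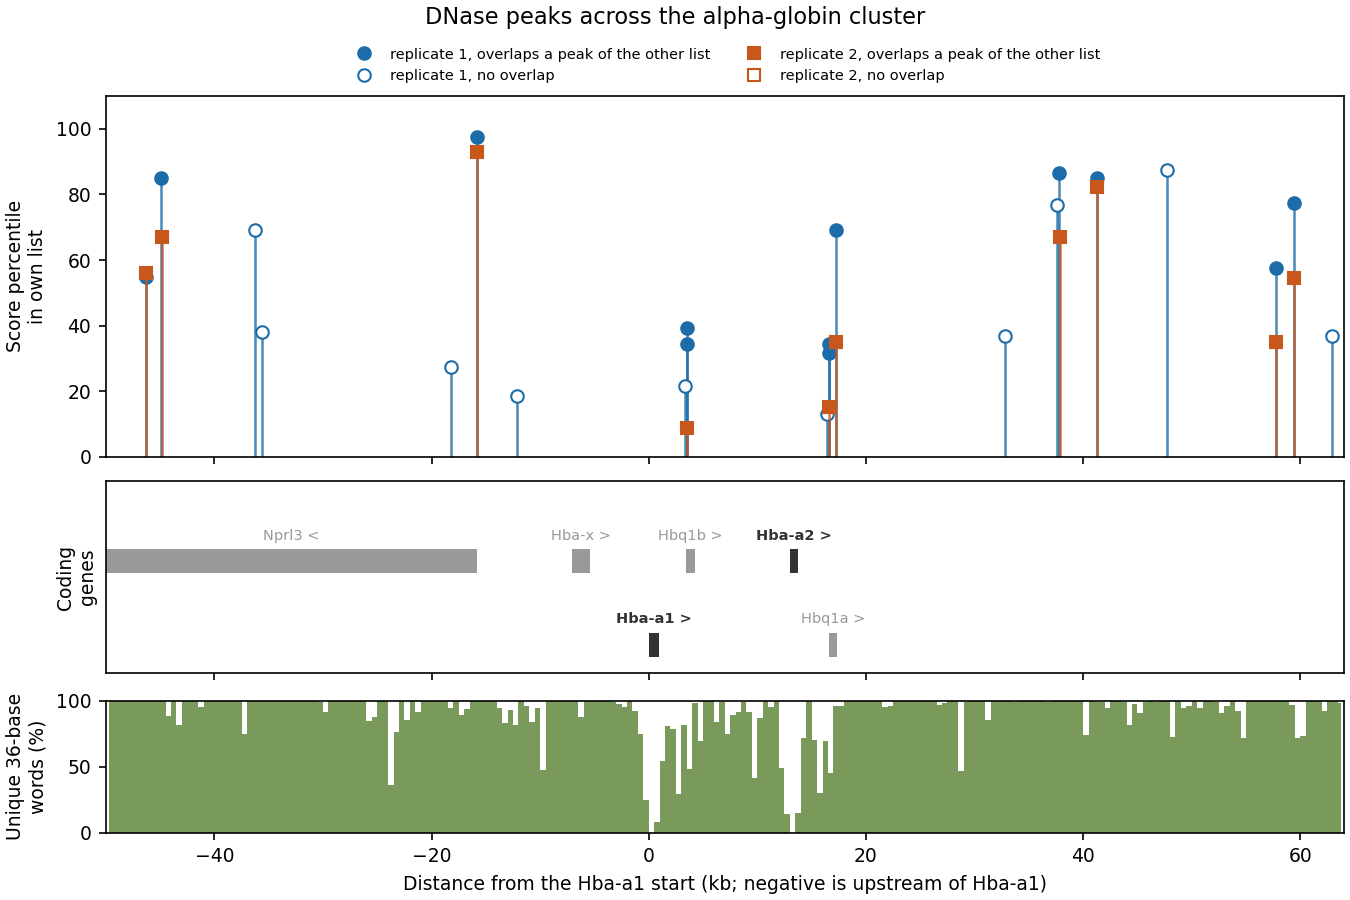
Peaks across the alpha-globin cluster by distance from the Hba-a1 start in kb, drawn as for the beta-globin cluster, with coding genes and the percent of unique 36-base words below. Filled symbols stand at Nprl3 promoters, at Hbq1b and Hbq1a and downstream, and the dips in the bottom panel mark Hba-a1 and Hba-a2, where no peak was listed.

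The duplicated globin genes differ from most of the others in how much of their sequence is unique. Of the 36-base words that start in the gene, 3.77% of those of Hba-a1 and 4.44% of those of Hba-a2 occur once in mm10, and 28.1% of those of Hbb-bt and 32.2% of those of Hbb-bs. From 250 bases before to 50 after the annotated start, 20.0% of the words of Hba-a1 and 0% of those of Hba-a2 were unique. For Slc4a1 this was 61.7%, and for the other 6 genes it was between 98.7% for Klf1 and 100%. Over 1 kb on either side of the start, the window in which promoter peaks were counted, 540 of 2001 words were unique for Hba-a1 and 411 (20.5%) for Hba-a2, against 1161 (58.0%) for Hbb-bt and 1307 (65.3%) for Hbb-bs. For the other 5 genes the share was between 88.0% for Slc4a1 and 100% for Rhag. The theta-globin genes were at 63.0% for Hbq1a and 62.2% for Hbq1b in that window, and at 74.7% and 74.3% in the shorter one.

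For Hba-a1 and Hba-a2 the absence of a promoter peak and the low uniqueness of the sequence came together. The handling of reads that match several places is not stated in the sources used here, and its part in the missing peaks was not tested. The 250 bases before the RefSeq starts of these 2 genes are 97.6% identical, against 69.3% for Hbb-bt and Hbb-bs and 95.6% for Hbq1a and Hbq1b. The promoter of Hba-a2 (RefSeq, GRCm38.p6) is shown for that reason, from 120 bases before its annotated start, with its CCAAT and CACCC boxes in capitals.
Hba-a2 promoter, plus strand, chr11:32296369-32296488: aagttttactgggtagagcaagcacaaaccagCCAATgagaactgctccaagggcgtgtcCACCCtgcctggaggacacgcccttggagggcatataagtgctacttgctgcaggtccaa

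RefSeq promoters were at hand for 8 of the 9 genes, all but Slc4a1. In the 250 bases before the start, CACCC occurred on either strand in 8 of 8, against 52.0% of all 32851 promoters of the table. A CCAAT box occurred in 6 of 8, against 33.8%, with none at Epor and Alas2. A GATA match occurred in 7 of 8, all but Hbb-bt, against 26.5%. A TATA-type match (TATAAA or ATAAAA) occurred only at Hbb-bt and Alas2 among the 8, against 22.8%. Hba-a1 and Hba-a2, 97.6% identical over these bases, count separately in each share. These letters describe the sequence and not binding, and 7 of the 8 promoters had no peak in replicate 2.

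Klf1 encodes the erythroid transcription factor that reads CACCC boxes and activates adult beta-globin; the gene lies on the plus strand at chr8:84901928-84905291. Its locus (chr8:84851928-84955291) was among the densest, with 30 peaks of replicate 1 and 17 of replicate 2, and 15 of those of replicate 1 were shared. At its start, only replicate 1 had a peak, in the first of 3 exons, with a score of 54 at percentile 26.0 and a hotspot −log10 q of 1.42. The strong sites lay inside the gene. In the coding part of the second exon, 1.34 kb past the start, a peak scored 148 in replicate 1 (percentile 98.1) and 61 in replicate 2 (percentile 82.2). A second replicate 2 peak in the same exon scored 57 (percentile 79.3) and overlapped no replicate 1 peak. It lay in a replicate 1 hotspot at the ceiling of 100, where 53.0% of all replicate 1 hotspots stood. In the intron that follows, 2.72 kb past the start, a peak scored 121 in replicate 1 (percentile 83.9) and 35 in replicate 2 (percentile 50.6).

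Around Klf1, the promoters of housekeeping and other neighbours had the top scores. Dnase2a, a lysosomal DNase gene, had 150 in replicate 1 and 95 in replicate 2. Gcdh, a mitochondrial dehydrogenase gene, had 149 and 87, and Farsa, a phenylalanine tRNA synthetase gene, had 147 and 77, with replicate 1 first. The synaptonemal complex gene Syce2, the kinase gene Mast1 and Rtbdn also had shared promoter peaks. The strongest replicate 1 peaks without a partner away from those promoters scored 115 in Rtbdn, 102 in Farsa and 91 in Mast1, and 1 shared peak lay between genes, 42.7 kb downstream of the Klf1 start, with scores of 118 and 40 (percentiles 82.2 and 59.5).

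Epor encodes the receptor for erythropoietin, the hormone that keeps red cell precursors alive. The gene, on the minus strand at chr9:21958897-21963506, was the only one of the 9 genes with promoter peaks in both lists. At the annotated start, a window 0.0640 kb upstream scored 105 in replicate 1 (percentile 74.4), and its partner scored 25 in replicate 2 (percentile 27.8). At the start of the shorter transcript Epor-202, 0.876 kb inside the gene, the window scored 128 in replicate 1 (percentile 87.5) and 47 in replicate 2 (percentile 69.4). The internal site was thus ahead of the outer one in both rankings. Over exons 3 and 4, replicate 1 alone had weak windows of 47 and 50, at percentiles 15.7 and 20.1. The best Epor percentile was under the median of all coding genes with a promoter peak, 94.9 in replicate 1 and 89.6 in replicate 2.

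The Epor locus (chr9:21908897-22013506) held 31 peaks of replicate 1, of which 14 were shared, and 8 of these lay at promoters of neighbours. Swsap1, a homologous recombination gene, had windows of 148 and 149 in replicate 1 that met 99 and 95 in replicate 2. Rab3d, a secretory GTPase gene, had 147 and 101, and Plppr2 had 147 and 83, with replicate 1 first. Shared promoter peaks were also found at the start common to Tmem205 and Ccdc159, at that of Ccdc151 and Prkcsh, and at Rgl3. Outside promoters, the shared peak nearest to the Epor start lay in Rgl3, 5.96 kb upstream, with 130 in replicate 1 (percentile 88.5) and 31 in replicate 2 (percentile 42.1). Shared peaks in Rab3d (144 and 46), in Tmem205 (145 and 77) and between genes 13.0 kb downstream of the start (119 and 59) made up the rest, again with replicate 1 first. The strongest replicate 1 windows without a partner away from promoters scored 88 at 9.64 kb downstream and 83 at both Plppr2 sites.

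**Figure D4:**
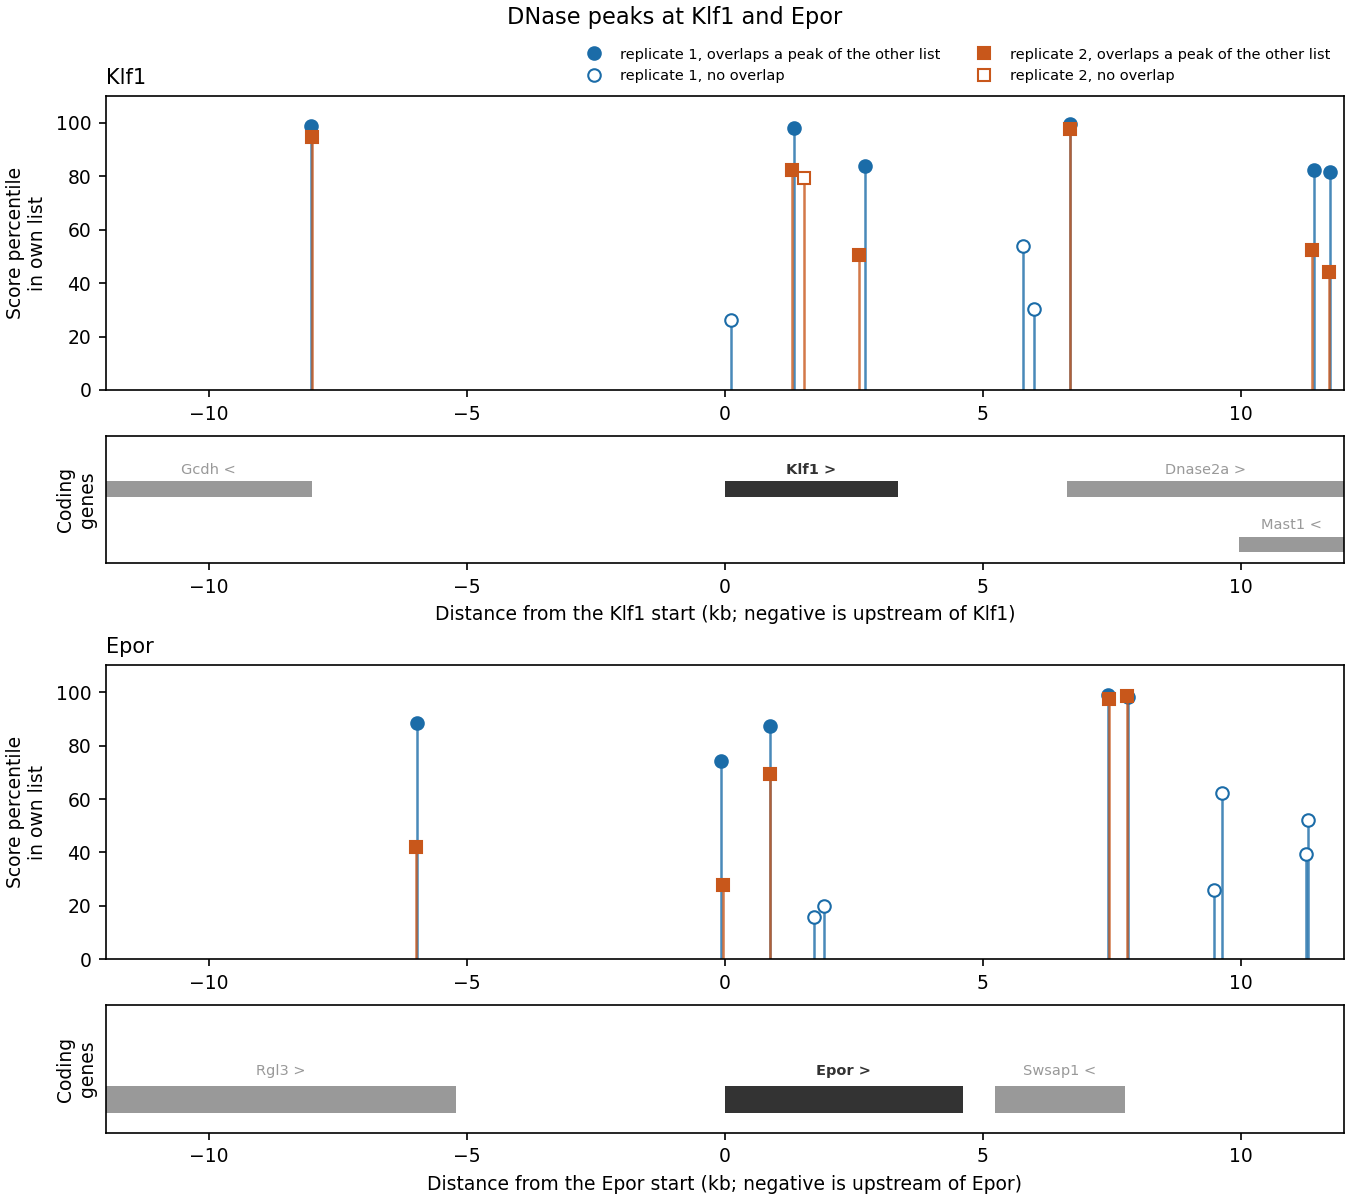
Peaks within 12 kb of the Klf1 start (upper pair of panels) and of the Epor start (lower pair) by distance in kb; height is the score percentile within the peak's own list, circles are replicate 1, squares replicate 2, filled symbols overlap a peak of the other list, and bars below are coding genes. At Klf1 the high symbols stand 1.34 and 2.72 kb inside the gene and not at its start, and at Epor shared peaks stand at the start and 0.876 kb inside the gene.

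Alas2, Slc4a1 and Rhag, all of them genes of maturing red cells, had no peak at a start in either list. Alas2, the X-linked gene of the erythroid first enzyme of heme synthesis (chrX:150547375-150570638, plus strand), had none in its gene body either. Its locus (chrX:150497375-150620638) held 5 peaks of replicate 1 and 3 of replicate 2. Those shared were at the start common to Apex2 and Pfkfb1 (140 and 127 in replicate 1, 42 and 30 in replicate 2) and, between genes, 36.5 kb upstream of the Alas2 start. The distal one scored 93 in replicate 1 (percentile 66.1) and 15 in replicate 2 (percentile 5.29). A replicate 1 window in an Apex2 intron, 7.11 kb upstream of Alas2, scored 42 (percentile 9.15) and held 2 GATA matches.

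Slc4a1 encodes band 3, the chloride-bicarbonate exchanger of the red cell membrane. The gene itself (chr11:102348824-102366203, minus strand) had no peak, while its locus (chr11:102298824-102416203) had 33 peaks of replicate 1 and 15 of replicate 2. Of the 14 shared peaks, 11 lay at promoters of neighbours. These were Ubtf, a transcription factor gene of ribosomal RNA synthesis with several annotated starts and a best pair of 148 and 91, Slc25a39, a mitochondrial carrier gene with 149 and 104, and Rundc3a with 125 and 54, replicate 1 first. The nearest windows upstream, at 11.1 and 23.4 kb, were in replicate 1 only and weak, at percentiles 26.0 and 24.5. Shared peaks away from promoters scored 125 and 62 at 45.7 kb upstream, 106 and 30 in Ubtf, and 108 and 41 at 66.2 kb downstream. The strongest replicate 1 windows without a partner away from promoters scored 102 at 27.4 kb downstream, 101 in a Ubtf intron 53.7 kb downstream and 86 at 47.9 kb upstream.

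Rhag encodes an ammonia channel protein of the Rh complex in the red cell membrane, and lies on the plus strand at chr17:40811126-40840754. Its locus (chr17:40761126-40890754) was the only one of the 7 with no replicate 2 peak, and it held 9 of replicate 1 at a median percentile of 11.6. The highest of these was the only one inside Rhag, in an intron 13.6 kb past the start. It scored 69 at percentile 45.0 and held a CTCF match, in a hotspot at the −log10 q ceiling of 100 (53.0% of all replicate 1 hotspots). Then came 49 at 62.8 kb downstream and 47 in Crisp2 and in 9130008F23Rik, all at or below percentile 18.6.

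Motif matches in the 31 replicate 1 peaks and 13 replicate 2 peaks of both globin clusters were counted beside all peaks of the same list on the autosomes and X. GATA matched in 4 of 31 (12.9%) against 17.5% of all replicate 1 peaks, and in 3 of 13 (23.1%) against 13.6% of all replicate 2 peaks. NFE2/AP-1 matched in 5 of 31 (16.1%) against 6.10%, and in 1 of 13 (7.69%) against 4.80%. CTCF matched in 3 of 31 (9.68%) against 3.25%, and in 5 of 13 (38.5%) against 8.82%. The CACCC box matched in 2 of 31 (6.45%) against 10.1%, and in 1 of 13 (7.69%) against 15.9%.

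Motifs of factors that act in myeloid cells, and the E-box, were counted in the same way. PU.1-type ETS matched in 2 of 31 replicate 1 peaks (6.45%) against 10.6%, and in 1 of 13 replicate 2 peaks (7.69%) against 7.86%. C/EBP matched in 1 of 31 (3.23%) against 11.0%, and in 1 of 13 (7.69%) against 10.3%. RUNX matched in 4 of 31 (12.9%) against 7.29%, and in 1 of 13 (7.69%) against 5.42%. The TAL1-type E-box matched in 3 of 31 (9.68%) against 12.6% in replicate 1, and in 2 of 13 (15.4%) against 10.8% in replicate 2. The lists thus differed in which share was the larger, and the same held for GATA in the globin clusters. With so few windows, and windows of both lists that cover the same sites, these shares are descriptions of the sequences and no test was made.

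Other genes of the red cell programme were set beside the 9 by the same promoter count, from lists that include the 9 genes where they belong; in each pair of percentiles the replicate 1 value precedes that of replicate 2. The share over all coding genes, to be read beside each count, was 58.2%. Of 10 globin genes 2 (20.0%) had a shared promoter peak, Hbq1a and Hbq1b, and the other 8, with Hba-x, Hbb-bh1, Hbb-bh2 and Hbb-y among them, had none in either list. Of 13 genes of heme synthesis and mitochondrial import 11 (84.6%) had a shared promoter peak, among them Urod (percentiles 98.1 and 95.4) and Slc25a38 (96.1 and 93.4). The 2 without one in either list were Alas2 and Slc25a37, the mitochondrial iron importer of red cell precursors. The housekeeping isoform of the first enzyme, Alas1, named for the contrast with Alas2, had a shared peak at percentiles 88.0 and 80.8.

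Among 18 genes of the red cell membrane, its skeleton and blood groups, 8 (44.4%, against 58.2% of all coding genes) had a shared promoter peak, led by the skeleton gene Epb41 (percentiles 99.6 and 95.8), Icam4 (91.9 and 86.2), Dmtn (86.0 and 75.8) and Rhd (86.0 and 57.8). A further 3 had one in replicate 1 only and 1 had peaks that did not overlap. Beside Slc4a1 and Rhag, 4 had none in either list, among them the water channel gene Aqp1, the protein 4.2 gene Epb42 and the Kell antigen gene Kel. Of 12 late erythroid genes 11 were matched in the annotation, and 6 of 11 (54.5%, near the 58.2% of all coding genes) had a shared promoter peak, led by the mitophagy receptor gene Bnip3l (98.1 and 99.9), Blvrb (98.8 and 97.5), Bpgm (98.8 and 92.2) and Slc2a1 (98.1 and 92.2). Car1, a carbonic anhydrase gene, and Trim10 had none in either list.

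Of 14 erythroid transcription factors and cofactors 12 (85.7%, against 58.2%) had a shared promoter peak, with Nfe2 (percentiles 99.6 and 97.5), Zfpm1 (99.6 and 96.8), which encodes the GATA1 cofactor FOG1, and Zbtb7a (98.8 and 95.8) ahead. The 2 others, Klf1 and Gata1, had one in replicate 1 only; Gata1, the master regulator of the lineage, is named after its values were seen, and its best window scored 100 at percentile 71.1. In the erythropoietin receptor and iron uptake list, 13 of 13 (100%) had a shared promoter peak, led by the adaptor gene Sh2b3 (99.6 and 96.1), the transferrin receptor gene Tfrc (97.4 and 97.8), Jak2 (98.8 and 92.6) and the phosphatase gene Ptpn6 (96.7 and 91.7). In that list Epor had the lowest mean of both percentiles, at 78.4. Many genes of these 2 lists also work in other blood cells.

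For comparison, 6 of 9 myeloid granule genes (66.7%) had a shared promoter peak, led by Ctsg (97.4 and 80.0), Cebpe (91.4 and 78.4), Camp (90.9 and 66.9) and Prtn3 (82.8 and 65.5), and the other 3 had one in replicate 1. In the list of myeloid regulators and receptors the count was 9 of 9, with Spi1 at 99.6 and 97.2 and Cebpa at 98.1 in both lists. The 9 red cell genes, at 1 of 9, thus had a smaller share with a shared promoter peak than either myeloid list and than all coding genes, as a description without a test.

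**Figure D5:**
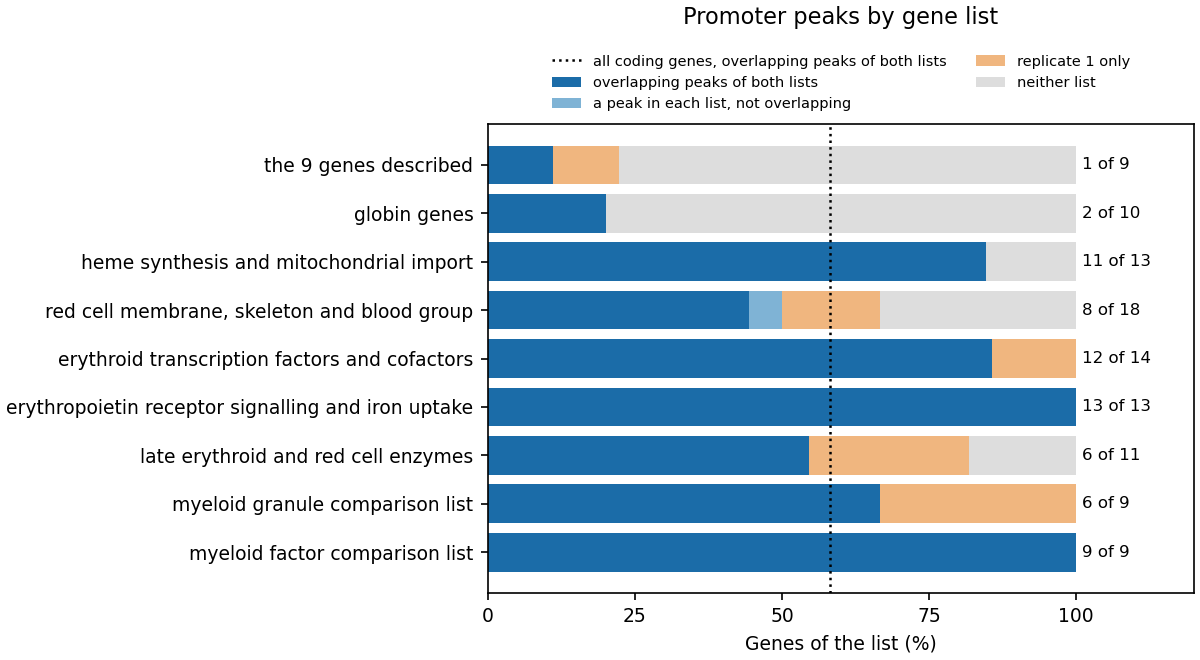
Percent of the genes of each list by promoter peak: overlapping peaks of both lists, a peak in each list without overlap, replicate 1 only, or neither; the number at the right is the count with overlapping peaks of the genes found, and the dotted line marks the 58.2% of all coding genes. The 9 genes described (1 of 9) and the globin genes (2 of 10) have the shortest dark bars, and the erythropoietin receptor list (13 of 13) and the myeloid factors (9 of 9) the longest.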

How the data were processed

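The authors pooled the 2 libraries of each biological replicate into 1 alignment to mm10 and deposited 1 peak list and 1 hotspot list per replicate, per the text files deposited with them. The deposited peak score is a whole number whose scale, caller and settings no source used here states; the deposited hotspot column holds a −log10 q value with a ceiling of 100, read by the position that the file format reserves for it. Depth per sample is therefore unknown, and no interval is given.

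Repeated peak positions (48 in replicate 1, 5 in replicate 2) were kept once. Genes and transcript starts came from GENCODE M21. A promoter is the 1 kb on either side of any transcript start of a protein-coding gene; peaks were placed in a promoter or body of the 9 genes, a promoter or body of another gene, or between genes, in that order. Percentiles are mid-ranks within a list. Motifs and 36-base words, counted on both strands of chromosomes, were read from GRCm38.p6 with Python 3.11.15, pandas 2.3.3, numba 0.67.0 and Biopython 1.88; the scripts were tested on simulated data. Sequences in untranslated exons (GENCODE or RefSeq) were left out.

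The genes, lists and settings were chosen with earlier results of these data known. Named genes are all 9 genes, up to 4 genes per list with the highest mean promoter percentile and up to 3, by the alphabet, that lack a promoter peak in each list, neighbours with a shared promoter peak, every shared peak outside promoters, and the 3 strongest replicate 1 peaks per locus without a partner outside promoters of other genes. A gene that this rule names is not reported here. Alternatives were other promoter windows, starts, overlaps, flanks and score thresholds, lists of equal length, hotspots, and each list alone. No tests were made.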

Additional observations from a re-analysis of the deposited data

How the results depend on the processing

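The main limits were that each replicate is 1 list of unknown depth and that the replicate 1 list is far longer; the part of list length in peaks found in replicate 1 only was not tested. Epor kept a shared promoter peak under every alternative run. The count of the 9 genes with one was 1, and it became 3 with promoters of 2.5 kb (Hbb-bt and Klf1 added) and 2 with hotspots (Klf1 added). Leaving out either replicate gave 1 to 2. In replicate 1 the count was 2, and 3 with promoters of 2.5 kb (Hbb-bt added), 1 with peaks above the median score and 1 with lists of equal length (Klf1 lost); in replicate 2 it was 1, and 3 with promoters of 2.5 kb and 2 with hotspots. Counts in the loci followed the flank and the threshold by construction. Replicate 1 peaks (139) became 83 above the median score, 57 with lists of equal length, 36 with flanks of 10 kb and 291 with flanks of 100 kb. Replicate 2 peaks (62) became 41 above the median score, 19 with flanks of 10 kb and 121 with flanks of 100 kb. Shared peaks (61) became 40, 20 and 113 under those settings, and leaving out either replicate gave 62 to 139. Shared peaks outside promoters (18) became 29 when only the start of the gene record counted, 10 above the median score, 6 with flanks of 10 kb and 36 with flanks of 100 kb. No paired analysis was possible because no result comes from a test.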
